A study of Mus musculus with 14 samples.

Results

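The comparison described here sets fibroblast-derived cells on day 18 of a chemical conversion beside primary retinal pigment epithelium (RPE) of the mouse. It rests on 5 of the 14 mouse libraries of the series: 3 of the day 18 intermediate (D18) and 2 of primary RPE (P-RPE). Every gene that passed a filter on low counts entered the test, which left 18692 of 55291 gene symbols. The other 9 libraries (fibroblasts before treatment, called MEF, and cells at days 7 and 32, called D7 and D32) are used only for levels set side by side.

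The starting cells were mouse embryonic fibroblasts. The D18 cells are labelled as a reprogramming intermediate grown in M7 reprogramming medium, a serum-free neural medium with B27 lacking vitamin A, basic fibroblast growth factor (bFGF) and 7 small molecules. These are CHIR-99021 (a GSK3 inhibitor that activates Wnt signalling), LDN193189 (a BMP receptor inhibitor), A 83-01 (a TGF-beta receptor inhibitor), Hh-Ag1.5 (a Hedgehog pathway agonist), RG108 (a DNA methyltransferase inhibitor), BMS-345541 (an IKK inhibitor) and CKI-7 (a casein kinase 1 inhibitor). No RPE transgene is named for these cells, and the second medium, meant for differentiation to RPE, had not yet been applied. The labels say that cells with a consistent and good appearance were picked by scraping, so D18 stands for selected regions of a dish. P-RPE is labelled as RPE with no treatment. All 14 libraries, P-RPE among them, carry the genotype label C57BL/6J and a source of embryos at day 13.5 of gestation. No label tells whether the libraries within a group derive from different cultures or animals, so the p-values measure only the spread between these libraries, which may be technical.

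The RPE is a single sheet of pigmented epithelial cells between the photoreceptors and the choroid. It regenerates the visual chromophore from all-trans retinol, makes melanin, engulfs the shed tips of photoreceptor outer segments, moves ions, lactate and glucose between retina and blood, and secretes factors that keep both neighbours alive. In the embryo it arises from the eye field and the optic cup, where factors such as Rax, Six3, Lhx2 and Pax6 act first and Mitf and Otx2 then turn on pigment and visual cycle genes.

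Library totals lay between 34560073 and 41390196 counts, and mitochondrially encoded genes took 1.64 to 2.83% of them. Libraries of a group differed from each other more at D18 than in the other groups, with a common biological coefficient of variation of 0.222 at D18, 0.192 in P-RPE and 0.0404 in MEF. Of 9931 genes with a mean of at least 10 CPM (counts scaled to library size) at D18, 595 (5.99%) ranged over more than 2-fold among its 3 libraries. The third D18 library stood apart in matrix genes: 20 genes of fibroblast matrix summed to 19444, 18649 and 5291 CPM in D18 libraries 1, 2 and 3. P-RPE held RNA of cells that are not RPE. The 15 rod photoreceptor genes summed to 1371 and 3218 CPM in P-RPE libraries 1 and 2 and to 23.7 to 28.3 CPM at D18. Endothelial genes summed to 1306 and 1602 CPM in P-RPE and 11.7 to 23.4 CPM at D18, macrophage and microglia genes to 2260 and 2372.5 CPM against 18.9 to 66.6 CPM, and red cell genes to 914 and 1666 CPM against 0.107 to 0.433 CPM. All 15 rod genes, all 13 endothelial genes, 12 of 13 macrophage genes and all 6 red cell genes tested were lower at D18 (7 of the macrophage genes without a filter on low counts). The red cell genes passed that filter through P-RPE alone, so they could only come out lower. Further, 9 rod and 8 endothelial genes had at least 10 CPM in both P-RPE libraries and under 1 CPM in all D18 libraries. Any of these that passed through P-RPE alone could only come out lower too. Defining markers at 0 counts in all D18 libraries included Cldn5 of endothelium, Nr2e3 of rods and the beta globin Hbb-bs. A low level at D18 of a gene that these cells also express cannot be assigned to RPE alone, and the part of these cells in each difference was not tested. P-RPE held RNA of rods and lacked Y-linked counts, and whether its age and origin match the embryo label was not tested. Each difference from P-RPE is one from these 2 libraries as they are. In bulk RNA, fewer cells of a type and less RNA per cell cannot be told apart.

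**Figure D1:**
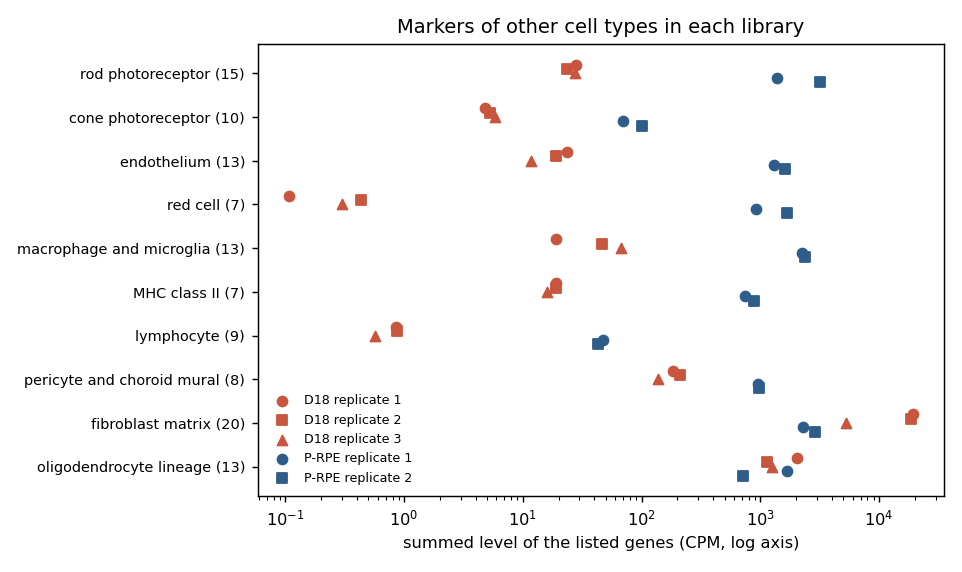
Summed CPM of marker lists of cell types other than RPE in the 5 libraries (log axis, one point per library, D18 and P-RPE in separate colours). Rod, endothelial, macrophage and red cell genes sit far higher in both P-RPE libraries, and rod genes reach 1371 and 3218 CPM there, while fibroblast matrix genes are higher at D18, with the third D18 library at 5291 CPM.

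The Y-linked genes Kdm5d, Ddx3y, Eif2s3y and Uty had 0 counts in both P-RPE libraries and between 4.39 and 15.5 CPM in every D18 library. Xist, the RNA of the inactive X chromosome, was at 176, 218 and 295 CPM at D18 and 847 and 591 CPM in P-RPE (log2 difference -1.65, SE 0.26, adjusted p = 0.0022). Both were looked up after the values were seen. The groups did not overlap in any of the 5 genes. Over all genes tested, D18 lay wholly above P-RPE for 37.0% and wholly below for 36.9%. Whether other differences move with these 5 genes was not tested.

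A majority of the genes tested differed between the intermediate and primary RPE, about equally often in each direction. The test was the quasi-likelihood test of edgeR, with p-values adjusted over all genes tested by the method of Benjamini and Hochberg. At an adjusted p under 0.05, 5147 genes were higher at D18 (27.5% of those tested) and 5132 were lower (27.5%), 55.0% in all. A difference of 2-fold or more was called for 3575 genes higher (19.1%) and 3503 lower (18.7%), and one of 16-fold or more for 975 and 1219 genes. The median log2 difference, D18 minus P-RPE, was 0.02 over all genes tested. Every log2 difference below has this direction and was estimated on counts scaled by TMM, and levels are CPM on the same scaled library sizes. The 3 D18 libraries lay above both P-RPE libraries for 6910 genes (37.0%) and below both for 6903 (36.9%).

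Shared genes were about as numerous as those that differed in one direction. A gene was counted as within 2-fold when the 95% interval of its log2 difference lay between -1 and 1 and it had at least 10 CPM in each of the 5 libraries. This held for 5208 genes, 27.9% of those tested and 63.1% of the 8255 genes with at least 10 CPM in all 5 libraries. Of these 5208, 1690 also passed the test, as small differences. Of 9532 genes with at least 10 CPM in both P-RPE libraries, 8255 (86.6%) reached 10 CPM in all D18 libraries as well. Another 264 (2.77%) were under 1 CPM in all 3, and 34 of these had no count there. In the other direction, 154 of 9448 genes (1.63%) with at least 10 CPM in all D18 libraries were under 1 CPM in both P-RPE libraries, 17 of them with no count.

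**Figure D2:**
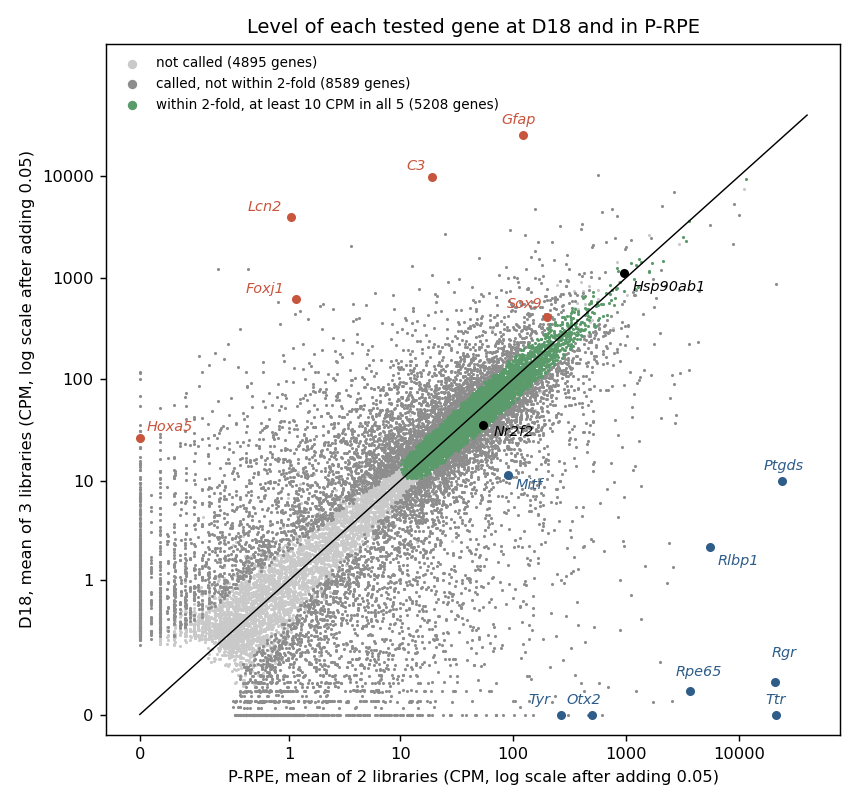
Mean CPM of each gene tested at D18 against P-RPE, both on log axes after adding 0.05 CPM, coloured as neither called nor within 2-fold (4895 genes), called and not within 2-fold (8589 genes) or within 2-fold (5208 genes). Genes within 2-fold lie along the diagonal at middle and high levels, and a group of RPE genes, among them Ttr, Rgr and Rpe65, lies at the D18 floor.

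The 264 genes abundant in P-RPE and near zero at D18 included 22 of the genes on the 6 RPE lists described below and 32 on lists of other cell types. Of the 264, 180 were also under 1 CPM in all MEF libraries and 202 in all D7 libraries, and 70 had at least 10 CPM in all D32 libraries. These 70 included genes of cells other than RPE, such as Hbb-bs (56.7 to 111 CPM at D32) and Cd74 (37.7 to 75.2 CPM). Of the 154 genes abundant at D18 and near zero in P-RPE, 109 were under 1 CPM in all MEF libraries and 17 had at least 10 CPM in all of them. This set held 11 genes of the motile cilia list and 8 Hox genes.

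Upstream sequences are shown for the RPE genes that D18 lacked most fully, because promoters of several such genes are known targets of MITF and OTX factors. Of the visual cycle, melanin and transport genes, 18 had at least 10 CPM in both P-RPE libraries and under 1 CPM in all D18 libraries, and 13 of them were found in the RefSeq promoter table (GRCm38.p6, 250 bases before to 50 after the start). Both strands were searched for CACGTG and for CATGTG, core letters bound by MITF family factors, and for TAATCC, the core bound by OTX factors. On the other strand the second reads CACATG and the third reads GGATTA. No 6 bases can match more than 1 of them. Below are the 150 bases before the start, 5′ to 3′ on the strand of the gene, of the 7 genes with a match there, with matches in capitals.
Rpe65 (chr3:159599031-159599180, plus strand): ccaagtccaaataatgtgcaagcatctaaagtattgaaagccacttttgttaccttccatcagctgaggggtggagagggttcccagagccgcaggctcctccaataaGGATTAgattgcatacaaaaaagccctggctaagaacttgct
Tyr (chr7:87493513-87493662, minus strand): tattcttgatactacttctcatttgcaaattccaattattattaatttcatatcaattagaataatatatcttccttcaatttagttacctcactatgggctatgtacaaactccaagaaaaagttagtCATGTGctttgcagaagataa
Tyrp1 (chr4:80834063-80834212, plus strand): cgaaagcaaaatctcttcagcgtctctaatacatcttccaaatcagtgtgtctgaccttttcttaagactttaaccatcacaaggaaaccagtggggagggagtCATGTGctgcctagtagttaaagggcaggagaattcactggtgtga
Dct (chr14:118052247-118052396, minus strand): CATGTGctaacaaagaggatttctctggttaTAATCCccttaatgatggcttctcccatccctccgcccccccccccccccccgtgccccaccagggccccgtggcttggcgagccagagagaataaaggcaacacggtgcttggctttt
Mlph (chr1:90914950-90915099, plus strand): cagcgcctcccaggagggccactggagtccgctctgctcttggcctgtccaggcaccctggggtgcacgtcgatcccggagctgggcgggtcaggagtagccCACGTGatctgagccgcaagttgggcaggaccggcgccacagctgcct
Tspan10 (chr11:120442481-120442630, plus strand): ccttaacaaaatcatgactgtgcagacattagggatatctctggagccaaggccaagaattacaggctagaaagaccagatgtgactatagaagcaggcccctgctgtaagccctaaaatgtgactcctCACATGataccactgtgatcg
Kcnj13 (chr1:87394730-87394879, minus strand): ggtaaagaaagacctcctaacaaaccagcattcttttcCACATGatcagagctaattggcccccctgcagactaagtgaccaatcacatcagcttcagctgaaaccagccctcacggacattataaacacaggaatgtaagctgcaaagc

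Within these 150 bases, CATGTG or its complement occurred in 5 of the 13 genes and in 7.15% of all 32851 promoters in the table. TAATCC or its complement occurred in 2 of 13 against 3.6%, and CACGTG in 1 of 13 against 4.3%. Tyr, Tyrp1, Dct, Tspan10 and Kcnj13 carried the first, Rpe65 and Dct the second and Mlph the third. In the whole 300-base window the counts were 8 of 13 (14.2% of all promoters), 4 of 13 (7.06%) and 1 of 13 (7.15%), and any of the 3 occurred in 9 of 13 (26.2%). A match describes letters only and is not a binding site.

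The genes of the visual cycle were all lower in the intermediate. Of 13 genes of visual cycle and retinoid handling, 13 were lower and none was within 2-fold, with a median log2 difference of -10.87. Of these, 5 had at least 10 CPM in both P-RPE libraries and under 1 CPM in all D18 libraries. Any that passed the filter on low counts through P-RPE alone could only come out lower. Rpe65, the isomerase that makes 11-cis retinol (GRCm38 chr3:159599175-159625321, plus strand), was at 0.0535, 0 and 0.0546 CPM in D18 libraries 1, 2 and 3 and at 4279 and 3023 CPM in P-RPE libraries 1 and 2, an order kept for every gene below. The 4 counts at D18 stood against 283677 in P-RPE (log2 difference -16.53, SE 0.48, adjusted p = 4.5e-06). The groups did not overlap, as held with D18 below for 36.9% of all genes tested.

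Lrat, which esterifies retinol and so makes the substrate of Rpe65 (chr3:82892579-82903973, minus strand), had 2 counts over the 3 D18 libraries and 3005 and 2095 CPM in P-RPE, a ratio of 143830.0 (95% interval of the counts 39816 to 1187700.0). Rgr, an opsin of the RPE that photoisomerises retinal (chr14:37034909-37048964, minus strand), was at 0.161, 0 and 0 CPM against 21885 and 19779 CPM (log2 difference -18.50, SE 0.76, adjusted p = 1.3e-05). Ttr, the carrier of thyroxine and of retinol-binding protein, had no count at D18 and 22562 and 19689 CPM in P-RPE, at least 796420.0-fold lower when 3 counts over the group are taken as the floor (adjusted p = 1.8e-05). All 3 genes were among the 12 with the lowest log2 difference in the whole table.

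The other members named here were lower by differing amounts. Rlbp1, the retinaldehyde-binding protein shared by RPE and Müller glia, was at 1.82, 2.06 and 2.62 CPM against 5898 and 5174 CPM (log2 difference -11.32, SE 0.28, adjusted p = 3.4e-06). Rdh5, a retinol dehydrogenase of the RPE, was at 41.1, 48.5 and 43.5 CPM against 2822 and 2675 CPM (log2 difference -5.95). Rdh11, a broadly expressed member of the same family, had the smallest difference of the list, with 34.3, 45.3 and 42 CPM against 143 and 117 CPM (log2 difference -1.68, SE 0.15, adjusted p = 0.00021). Stra6, the membrane receptor for retinol-binding protein, was at 0.535, 2.44 and 1.12 CPM against 2609 and 2533 CPM. So Rpe65 and Lrat had 4 and 2 counts at D18 and Stra6 was at 0.535 to 2.44 CPM, while Rdh5, Rdh10 and Rdh11 were present at lower levels.

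Melanin genes were likewise lower. Of 17 genes of melanin synthesis and the melanosome, 15 were lower, none was higher and 2 did not pass, with a median log2 difference of -8.78. In this list 10 genes had at least 10 CPM in both P-RPE libraries and under 1 CPM in all D18 libraries. Here too, any that passed the filter through P-RPE alone could only come out lower. Tyr, tyrosinase, the first enzyme of melanin synthesis (chr7:87424771-87493512, minus strand), had no count at D18 and 286 and 246 CPM in P-RPE, at least 10027-fold lower (adjusted p = 1e-05). Dct, dopachrome tautomerase, had 2 counts at D18 and 1327 and 2105 CPM in P-RPE, a ratio of 97692 (95% interval of the counts 27043 to 806680.0). Slc45a2, a melanosomal transporter, had no count at D18 and 61.9 and 79.5 CPM in P-RPE, at least 2678-fold lower (adjusted p = 2.7e-05).

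Tyrp1, the related oxidase, was at 0.0803, 0.0509 and 0 CPM against 553 and 841 CPM (log2 difference -13.85, SE 0.47, adjusted p = 8.3e-06). Pmel, which forms the fibrils on which melanin is laid down, was low but detected in every D18 library, at 5.11, 3.21 and 4.64 CPM against 609 and 1086 CPM (log2 difference -7.62, SE 0.36, adjusted p = 2.6e-05). Gpnmb, a glycoprotein also of macrophages, was at 52, 33.8 and 40.1 CPM and 898 and 1351 CPM (log2 difference -4.74). Mreg, which acts in melanosome transfer, was the more abundant of the 2 genes that did not pass, at 1.95, 2.29 and 1.75 CPM against 2.7 and 4.66 CPM (log2 difference -0.88, SE 0.34, adjusted p = 0.067), and the other was Bloc1s1, a subunit of an organelle biogenesis complex.

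**Figure D3:**
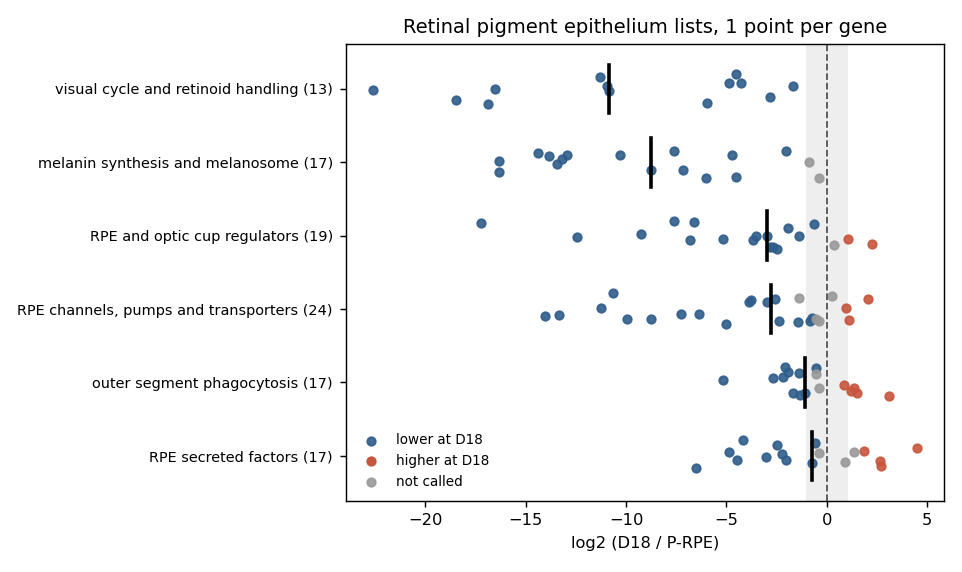
Log2 difference, D18 minus P-RPE, of every tested gene on the 6 RPE lists (one point per gene, black bar the list median, dashed line the median of all genes at 0.02, grey band 2-fold either way). The visual cycle and melanin lists lie almost wholly below the band, with medians of -10.87 and -8.78, and the phagocytosis and secreted factor lists straddle it, with medians of -1.09 and -0.74.

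Transcription factors of the optic cup and RPE differed among themselves. Of 19 genes, 16 were lower, 2 were higher and 1 did not pass, with a median of -2.98. Otx2, a homeodomain factor needed for RPE identity (chr14:48657677-48673819, minus strand), had no count in any D18 library and 555 and 435 CPM in P-RPE, at least 18638-fold lower (adjusted p = 1.5e-05). Crx, its relative in photoreceptors, also had no count at D18, against 10.2 and 25.7 CPM (at least 685-fold lower, adjusted p = 0.0015). Mitf, the factor that drives pigment genes (chr6:97807052-98021349, plus strand), was lower but present, at 15.3, 9.44 and 9.62 CPM against 96.5 and 84.8 CPM (log2 difference -2.98, SE 0.23, adjusted p = 0.00014). On the scale of all 14 libraries Mitf was at 3.62 to 3.81 CPM in MEF, 14.5 to 15.4 CPM at D7 and 15.2 to 28 CPM at D32. Otx2 was at 57.2 to 104 CPM at D32, where the globin gene Hbb-bs was also at 56.7 to 111 CPM. The source of either RNA at D32 was not tested.

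The eye-field factors, which the first stage of the protocol is meant to bring out, were also compared with P-RPE. Six3 was at 0.0535, 0.0509 and 0.492 CPM against 127 and 119.87 CPM (log2 difference -9.28, SE 0.61, adjusted p = 0.00013), and Lhx2 at 0.696, 0.815 and 0.328 CPM against 119 and 128 CPM (log2 difference -7.64, SE 0.30, adjusted p = 1.2e-05). Rax was at 0, 0.0509 and 0.164 CPM and 2.86 and 14 CPM (log2 difference -6.83, SE 1.07, adjusted p = 0.0029), and Six6 at 0.0535, 0 and 0 CPM and 0.577 and 3.46 CPM (log2 difference -6.59, SE 1.23, adjusted p = 0.0048). All 4 were under 1 CPM in every D18 library, and the 2 P-RPE libraries themselves differed in Rax and Six6, the second being higher.

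Pax6, which is also on the neural progenitor list below, was the only eye-field factor compared here that was above 1 CPM at D18. Its levels were 38, 38 and 43.7 CPM at D18 and 6.16 and 55.7 CPM in P-RPE, so that the D18 libraries lay between the 2 P-RPE libraries (log2 difference 0.36, SE 0.80, adjusted p = 0.73). Without the second P-RPE library the log2 difference was 2.69 and the call was made (adjusted p = 0.00064), and without the first it was -0.48. The summed rod genes, at 1371 and 3218 CPM, were likewise higher in the second P-RPE library. The part of retinal cells in the second P-RPE library's Pax6 was not tested.

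Sox9, which acts with Mitf and Otx2 on visual cycle genes and is also a factor of astrocytes, was higher at D18, at 327, 384 and 526 CPM against 191 and 205 CPM (log2 difference 1.06, SE 0.22, adjusted p = 0.0065). Nr2f1, an orphan receptor of the dorsal optic cup, was higher at 228, 176 and 265 CPM against 40.8 and 51.6 CPM (log2 difference 2.27, SE 0.22, adjusted p = 0.00027). Its relative Nr2f2 was the only one of the 19 within 2-fold, at 31.7, 37.6 and 36.9 CPM against 54.2 and 54.7 CPM (log2 difference -0.62, SE 0.12, adjusted p = 0.0046). Sox9 lost the call without the first P-RPE library (adjusted p = 0.054).

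**Figure D4:**
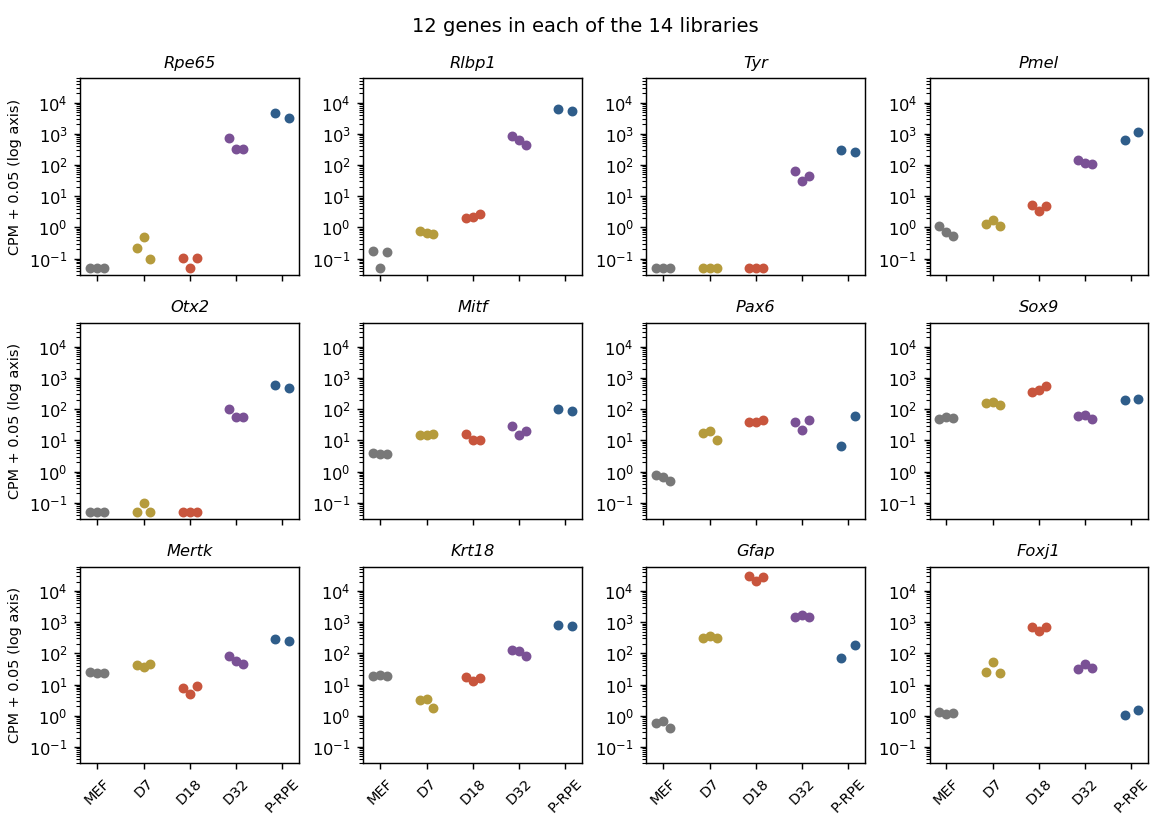
Level of 12 genes in all 14 libraries (CPM plus 0.05 on a log axis, one point per library, grouped as MEF, D7, D18, D32 and P-RPE). Rpe65, Tyr and Otx2 lie at or near the floor at D18, Rlbp1 lies above it at 1.82 to 2.62 CPM, and all 4 are far higher in P-RPE, Mitf at D18 lies between MEF and P-RPE, Pax6 differs widely between the 2 P-RPE libraries, and Gfap and Foxj1 are highest at D18.

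Channels, pumps and transporters of the RPE ranged widely in their difference. Of 24 genes, 17 were lower, 3 were higher and 4 did not pass, with a median of -2.78. Slc4a5, a sodium bicarbonate cotransporter, was at 0.134, 0.102 and 0.109 CPM against 2009 and 1962 CPM (log2 difference -14.04, SE 0.22, adjusted p = 2.2e-06). Kcnj13, the apical potassium channel (chr1:87386363-87394729, minus strand), had 2 counts at D18 and 244 and 197 CPM in P-RPE, a ratio of 12456 (95% interval of the counts 3448 to 102860.0). Trpm3, a cation channel, was at 0.856, 1.12 and 0.82 CPM against 2554 and 2038 CPM (log2 difference -11.26). These were the 3 members with the largest differences.

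Lactate transport showed how members of a family differed. Slc16a8, the basolateral lactate transporter restricted to RPE and choroid plexus, was at 2.84, 2.83 and 1.5 CPM against 2429.8 and 2343 CPM (log2 difference -9.96, SE 0.34, adjusted p = 7.5e-06). Slc16a1, the apical and widely expressed one, was at 568, 570.26 and 518 CPM against 1028 and 808 CPM (log2 difference -0.73, SE 0.15, adjusted p = 0.0071). Slc16a3, the transporter of glycolytic cells, was higher at D18, at 20.6, 32.9 and 20.1 CPM against 4.88 and 6.92 CPM (log2 difference 2.06, SE 0.30, adjusted p = 0.0016). Bsg, the chaperone that carries these transporters to the membrane, was lower (log2 difference -2.58, adjusted p = 0.0002). The Slc16a1 call was lost without the first P-RPE library (adjusted p = 0.057).

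Car2, a carbonic anhydrase, was higher at D18 (log2 difference 0.95, adjusted p = 0.0096), and so was Slc12a2, a sodium, potassium and chloride cotransporter (log2 difference 1.13, SE 0.35, adjusted p = 0.036). Both calls were lost without the second P-RPE library (adjusted p = 0.072 and 0.17), and that of Slc12a2 also without the first (adjusted p = 0.09). Best1, the chloride channel mutated in Best disease, was low in both groups, at 1.61, 1.63 and 1.2 CPM and 2.15 and 2.13 CPM (log2 difference -0.53, SE 0.32, adjusted p = 0.2). The D18 libraries lay below both P-RPE libraries, but the difference did not pass the test.

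Genes for engulfing outer segments were mostly expressed in both groups. Of 17 genes, 10 were lower, 5 were higher and 2 did not pass, with a median of -1.09, and 16 of the 17 had at least 10 CPM in all 5 libraries. Mertk, the receptor that triggers engulfment, was the exception, at 7.25, 4.84 and 8.47 CPM against 264 and 229 CPM (log2 difference -5.17, SE 0.25, adjusted p = 2.5e-05). Of its relatives, Tyro3 was lower at 33, 30.2 and 31.1 CPM against 141 and 122 CPM (log2 difference -2.06, SE 0.11, adjusted p = 2.5e-05) and Axl was higher at 289, 287 and 294 CPM against 136 and 179.54 CPM (log2 difference 0.87, SE 0.15, adjusted p = 0.0028). Of the 3 receptors, Mertk and Tyro3 were thus lower at D18 and Axl was higher.

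Both ligands of these receptors were higher at D18. Pros1 was at 311, 304 and 275 CPM against 32 and 37.1 CPM (log2 difference 3.10, SE 0.14, adjusted p = 1.4e-05), and Gas6 at 907, 626 and 526 CPM against 223 and 312 CPM (log2 difference 1.36, SE 0.28, adjusted p = 0.0073). Gas6 did not pass without the first P-RPE library (adjusted p = 0.058). Lamp1, a lysosomal membrane protein, was higher too (1166, 963 and 1094 CPM against 379 and 383 CPM, adjusted p = 0.00032). Scarb1, a lipoprotein and carotenoid receptor, was lower (log2 difference -2.71), as was the apical scaffold Slc9a3r1 (log2 difference -2.18). Mfge8, the bridge between outer segments and integrins, was at 119, 143 and 109 CPM against 130.49 and 196 CPM (log2 difference -0.40, SE 0.20, adjusted p = 0.14), and Mfge8 and the kinase Ptk2 were within 2-fold. Without the first P-RPE library Mfge8 passed as lower (adjusted p = 0.042).

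Secreted factors were split. Of 17, 10 were lower, 4 were higher (6 without the third D18 library) and 3 did not pass, with a median of -0.74. Bmp4, a signal of the dorsal optic cup and RPE, was at 5.22, 4.53 and 3.74 CPM against 419.76 and 398 CPM (log2 difference -6.51, SE 0.17, adjusted p = 4e-06), and Bmp7 was lower as well (log2 difference -4.46). Enpp2, which makes lysophosphatidic acid and is abundant in RPE and choroid plexus, was at 173, 86.7 and 113 CPM against 4196 and 3033 CPM (log2 difference -4.86, SE 0.35, adjusted p = 9.3e-05). Timp3, the protease inhibitor of Bruch's membrane, was at 236, 169.75 and 297 CPM against 4489 and 4107 CPM (log2 difference -4.20), and Vegfa, the factor that maintains the choriocapillaris, at 88.7, 242 and 85.9 CPM against 801 and 734 CPM (log2 difference -2.47, SE 0.49, adjusted p = 0.008), a call lost without a filter on low counts (adjusted p = 0.072).

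The 3 secreted factor genes with the largest difference upward were Fgf2, Lif and Sparc. Fgf2, which encodes the growth factor whose protein the medium also contains, was at 143, 175 and 146 CPM against 6.43 and 7.2 CPM (log2 difference 4.51, SE 0.16, adjusted p = 7.5e-06). Sparc, a matrix glycoprotein, was at 4948, 5159.9 and 4118 CPM against 663 and 825 CPM (log2 difference 2.67, SE 0.22, adjusted p = 0.00013). Lif, a cytokine, was at 7.54, 8.53 and 6.61 CPM against 0.603 and 1.71 CPM (log2 difference 2.71, SE 0.47, adjusted p = 0.0031). Serpinf1, which encodes PEDF, did not pass, at 194, 255 and 71.2 CPM against 78.5 and 109 CPM (log2 difference 0.89, SE 0.53, adjusted p = 0.21); the third D18 library was the lowest of the 5, and without it the call was made (adjusted p = 0.0035). Pdgfa, a platelet-derived growth factor gene, was within 2-fold, and its small difference (log2 difference -0.60, SE 0.15, adjusted p = 0.013) did not pass without the first P-RPE library (adjusted p = 0.084).

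Epithelial junction genes were mostly lower in the intermediate. Of 24 tested genes of epithelial junctions and keratins, 14 were lower, 5 were higher and 5 did not pass, with a median of -2.54. Cdh3, P-cadherin of the RPE junction, was at 0.883, 1.86 and 0.601 CPM against 294 and 298 CPM (log2 difference -8.04, SE 0.44, adjusted p = 7e-05), and Cdh1, E-cadherin, at 0.375, 0.204 and 0.109 CPM against 18 and 23.3 CPM (log2 difference -6.47, SE 0.41, adjusted p = 5.1e-05). Cdh2, N-cadherin, had the opposite order, with 172, 192 and 189 CPM against 33 and 30.9 CPM (log2 difference 2.53, SE 0.12, adjusted p = 1.5e-05). No cadherin of the 3 overlapped between the groups, as held for 37.0% of all genes tested with D18 above and 36.9% with D18 below.

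Keratins of simple epithelia were low at D18. Krt18 was at 17.1, 12.6 and 15.4 CPM against 777 and 689.75 CPM (log2 difference -5.61, SE 0.18, adjusted p = 6.1e-06) and Krt8, its partner, at 4.49, 2.21 and 2.98 CPM against 332 and 304 CPM (log2 difference -6.62, SE 0.31, adjusted p = 2.6e-05). Dsp, the desmosomal linker (log2 difference -9.63), and Cldn1, a tight junction claudin (log2 difference -8.16), were lower still. Krt19 was higher at D18 at low levels, 2.19, 3.26 and 3.88 CPM against 0.157 and 0.251 CPM (log2 difference 3.90, SE 0.48, adjusted p = 0.00071), and so was Epcam (log2 difference 2.56, adjusted p = 0.047), a call lost without the first or second D18 library or either P-RPE library (adjusted p = 0.11, 0.099, 0.22 and 0.11). Jup, plakoglobin, did not pass and was within 2-fold, at 91.4, 76.4 and 99.9 CPM against 70.1 and 91 CPM (log2 difference 0.15, SE 0.16, adjusted p = 0.48).

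Basement membrane genes were more often higher than lower. Of 22 genes, 14 were higher and 6 lower, with a median of 0.81, and 9 were higher without either P-RPE library. Itgb4, the integrin of hemidesmosomes, was at 879, 591 and 705 CPM against 26.4 and 34.1 CPM (log2 difference 4.58, SE 0.26, adjusted p = 3e-05). Collagen IV genes differed in direction: Col4a5 (log2 difference 1.79) and Col4a6 (log2 difference 2.43) were higher, while Col4a3, at 1.5, 0.738 and 1.37 CPM against 364 and 293 CPM (log2 difference -8.10), and Col4a4 (log2 difference -6.23) were lower. Itgb8, an integrin that releases active TGF-beta, was lower (log2 difference -3.18), and Nid2, a nidogen, did not pass and was within 2-fold. Col4a6 lost the call without the second D18 library (adjusted p = 0.1).

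Glial genes were mostly higher at D18. Of 19 tested genes of astrocytes and radial glia, 16 were higher and 1 lower, with a median of 4.18. Gfap, the intermediate filament of astrocytes (chr11:102887336-102900912, minus strand), took 2.02 to 2.92% of all D18 counts, more than any other gene there. It was at 29703, 19255 and 27183 CPM against 66.3 and 178 CPM (log2 difference 7.70, SE 0.64, adjusted p = 0.00016), and on the scale of all 14 libraries at 0.369 to 0.636 CPM in MEF, 319 to 353 CPM at D7 and 1444 to 1710.4 CPM at D32. Thus the D18 libraries were above every other group for Gfap.

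The 3 glial genes with the largest differences were Ntsr2, Aqp4 and Acsbg1. Ntsr2, a neurotensin receptor of astrocytes, was at 181, 186 and 173 CPM against 0.21 and 0.15 CPM (log2 difference 9.94, SE 0.19, adjusted p = 2.4e-06). Aqp4, the water channel of astrocyte endfeet, was at 2102, 1885 and 2216 CPM against 1.05 and 6.17 CPM (log2 difference 9.16, SE 0.93, adjusted p = 0.0006), and Acsbg1, an acyl-CoA synthetase, at 607, 419 and 640.12 CPM against 2.62 and 1.48 CPM (log2 difference 8.08, SE 0.40, adjusted p = 2.9e-05). Glul, glutamine synthetase, was the gene of the list that was lower, at 319.98, 263 and 263 CPM against 1903 and 2102 CPM (log2 difference -2.83, SE 0.16, adjusted p = 3.2e-05). Apoe, the apolipoprotein of glia and RPE, did not pass, at 8863, 6812 and 6492 CPM against 10917 and 11119 CPM (log2 difference -0.58, SE 0.22, adjusted p = 0.061) except without the first D18 library (adjusted p = 0.041).

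Neural progenitor genes were also mostly higher. Of 21 tested, 15 were higher, 2 lower and 4 did not pass, with a median of 4.23. Sox2, the progenitor factor, was at 226, 185 and 290.08 CPM against 2.47 and 5.72 CPM (log2 difference 5.83, SE 0.47, adjusted p = 0.00027), and Fabp7, the fatty acid-binding protein of radial glia, at 199.99, 74.2 and 178 CPM against 1.1 and 0.702 CPM (log2 difference 7.38, SE 0.64, adjusted p = 0.00033). Nkx2-2, a ventral neural tube factor, was at 3.72, 2.39 and 1.48 CPM with 3 counts in P-RPE, a ratio of 65.9 (95% interval of the counts 22.3 to 321).

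The 2 progenitor genes lower at D18 belong to the Notch pathway. Hes1, a Notch effector, was at 16.1, 10.4 and 9.9981 CPM against 96.1 and 126 CPM (log2 difference -3.19, SE 0.25, adjusted p = 0.00015), and the ligand Dll1 was lower (log2 difference -2.46, adjusted p = 0.002). Msi1, an RNA-binding protein of progenitors, was equal in the groups to within 2-fold, at 143, 138 and 182 CPM against 147 and 157 CPM (log2 difference 0.02, SE 0.15, adjusted p = 0.91). Of the oligodendrocyte genes, 5 of 13 were higher, 2 were lower and 6 did not pass. Mbp, myelin basic protein, was at 813, 329 and 335 CPM and 837 and 91 CPM, so the first P-RPE library held far more of it than the second. It did not pass, but without the first P-RPE library it did (adjusted p = 0.049), and 10 of the 13 genes were then higher. Sox10, the factor of oligodendrocytes and neural crest, was lower at D18, at 25.1, 30.1 and 24 CPM against 313 and 322 CPM (log2 difference -3.59).

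Genes of motile cilia were higher at D18 with few exceptions. Of 26 genes, 23 were higher, none lower and 3 did not pass, with a median of 6.02. In this list 11 genes had at least 10 CPM in all D18 libraries and under 1 CPM in both P-RPE libraries. Any that passed the filter on low counts through D18 alone could only come out higher. Foxj1, the master regulator of motile cilia (chr11:116330704-116335399, minus strand), was at 684, 499.81 and 679 CPM against 0.918 and 1.38 CPM (log2 difference 9.07, SE 0.32, adjusted p = 7.5e-06). On the scale of all 14 libraries it was at 1.05 to 1.28 CPM in MEF, 22.9 to 54.4 CPM at D7 and 30.4 to 45.2 CPM at D32.

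Rsph4a, a radial spoke protein, was at 66.2, 28.9 and 67.3 CPM and had no count in P-RPE (at least 1395-fold higher, adjusted p = 0.00056). Tekt4, a tektin, was at 11.2, 7.08 and 10.2 CPM with no count in P-RPE (at least 245-fold higher, adjusted p = 0.00011), and Ak7, an adenylate kinase of cilia, was at 73.9, 34.5 and 49.3 CPM with 2 counts in P-RPE, a ratio of 2039.7 (95% interval of the counts 564 to 16846). The second D18 library was the lowest of the 3 for each. Dnaic2, a dynein intermediate chain, was the most abundant gene that did not pass, at 53.3, 23.1 and 39 CPM against 28.4 and 26.7 CPM (log2 difference 0.48, SE 0.34, adjusted p = 0.27), and it passed without the second D18 library (adjusted p = 0.015).

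Hox genes, which pattern the trunk and hindbrain and are largely silent in the eye, were present at D18. Of 39, 34 were tested and 33 of them were higher, none lower, and 34 of the 39 had no count in either P-RPE library. All 39 together summed to 0.682 and 0.577 CPM in P-RPE libraries 1 and 2. Members thus passed the filter on low counts through D18 and could not come out lower, so the direction of these calls is no separate result. The median log2 difference was 10.25, or 7.39 with genes at 0 set to their bounds. Hoxa5 was at 27, 19.8 and 31.9 CPM, Hoxb8 at 26.2, 21.1 and 25.8 CPM and Hoxa7 at 21.5, 19.1 and 23.1 CPM, each with no count in P-RPE (at least 678-fold, at least 632-fold and at least 550.43-fold higher). Hoxc12 was the member that did not pass (adjusted p = 0.077), and it passed without the third D18 library, where it had no count (adjusted p = 0.00082). On the scale of all 14 libraries Hoxa5 was at 35.5 to 39.7 CPM in MEF, the fibroblasts that D18 derives from, and 1.69 to 2.05 CPM at D32.

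By the fitted log2 difference, the 12 genes highest at D18 against P-RPE were Fam216b, Reg3g, Drc7, Ucma, Rsph4a, Bbox1, Dbx2, Ccdc153, Hoxa5, Hoxb8, Ak9 and Hoxa7, all without a count in P-RPE. The smallest of their lower bounds was 550.4-fold (Hoxa7) and the largest 3061-fold (Reg3g). Drc7, a subunit of the ciliary dynein regulatory complex, was at 114, 69.1 and 121 CPM, and Dbx2, a homeodomain factor of the neural tube, at 32.7, 30.9 and 30.049 CPM. Reg3g, a secreted lectin, was at 153, 191 and 3.11 CPM, so that its high rank rested on 2 of the 3 libraries (adjusted p = 0.026), and the call was lost without the second D18 library or either P-RPE library (adjusted p = 0.14, 0.079 and 0.08). The 12 lowest were Ttr, Rgr, Hbb-bs, Slc22a8, Otx2, Hba-a1, Cltrn, Lrat, Rpe65, Tmem72, Dct and Sult1c1. Hbb-bs and Hba-a1 are globin genes of red cells, with no count at D18 and 452 and 781 CPM and 331 and 639.82 CPM in P-RPE. Slc22a8, an organic anion transporter, was at 551 and 482 CPM in P-RPE with no count at D18 (at least 19483-fold lower). Ptgds, prostaglandin D synthase, was the gene with the most counts in P-RPE (2.18 to 2.39%), at 8.96, 9.32 and 11.4 CPM against 25230.0 and 22647 CPM (log2 difference -11.24, SE 0.29, adjusted p = 3.7e-06).

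**Figure D5:**
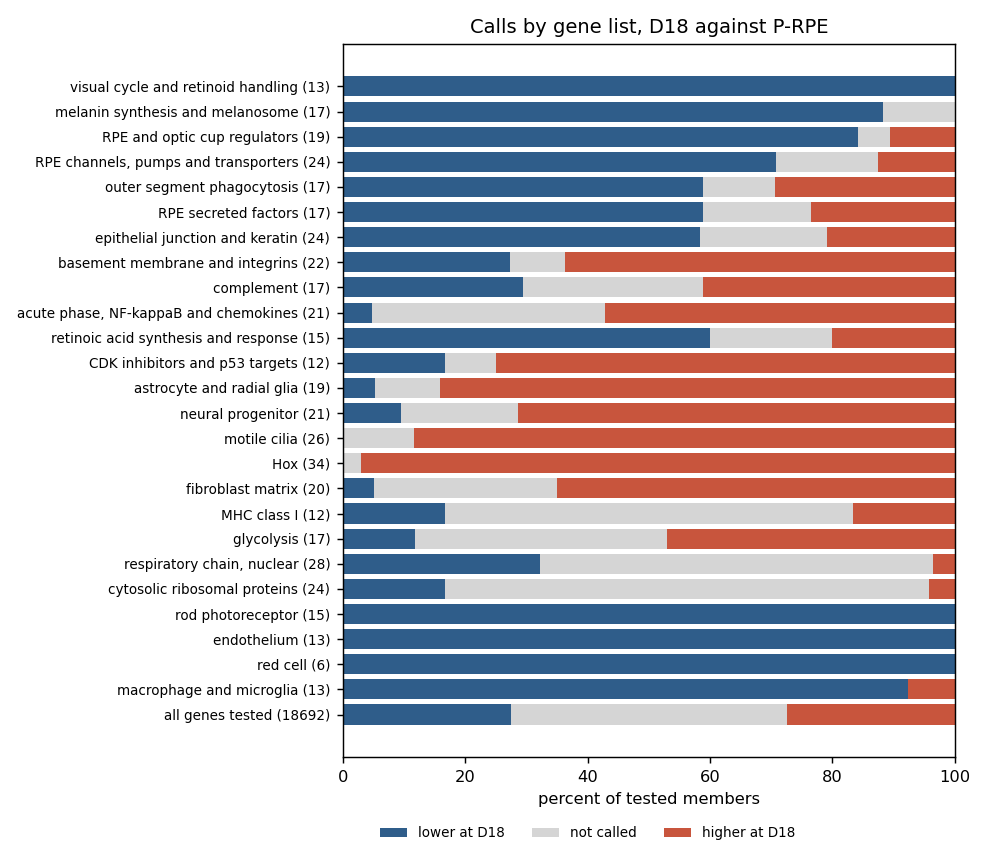
Percent of tested genes in each list that were lower at D18, not called or higher at D18 by the edgeR test, for 25 lists and all genes tested (stacked bars from 0 to 100%). The visual cycle and rod bars are lower throughout, the Hox and motile cilia bars are almost wholly higher, and ribosomal proteins are mostly not called, beside 27.5% lower and 27.5% higher for all genes. Hox genes passed the filter on low counts through D18, which fixed their direction. The direction of any rod, visual cycle or cilia gene that passed through a single group was fixed as well.

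Immune genes split by kind. Of 17 complement genes, 7 were higher, 5 lower and 5 did not pass, with a median of 0.66. Without a filter on low counts 1 was lower, and C1qa, C1qb and C1qc did not pass (adjusted p = 0.055, 0.092 and 0.096). C3, the central component (chr17:57203970-57228136, minus strand), was at 12454, 6852 and 9973 CPM against 16.6 and 21.4 CPM (log2 difference 9.01, SE 0.45, adjusted p = 1.9e-05). Cd55, which breaks up the C3 convertase (log2 difference 4.37), and Serping1, the C1 inhibitor (log2 difference 3.20), were higher. C1qa, C1qb and C1qc were the 3 with the largest differences downward (log2 differences -7.03, -6.61 and -6.54). Macrophages make all 3, and C1qa is itself on the macrophage list, which summed to 18.9 to 66.6 CPM at D18. The part of macrophages in these differences was not tested. C1s1, a C1 protease, did not pass (log2 difference 1.09, SE 0.58, adjusted p = 0.17) except without the third D18 library (adjusted p = 0.0026).

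Of 21 tested genes of the acute phase, NF-kappaB and chemokines, 12 were higher, 1 lower and 8 did not pass, with a median of 1.29. Lcn2, lipocalin 2, was at 3029.5, 5712 and 3159 CPM against 0.577 and 1.48 CPM (log2 difference 11.90, SE 0.72, adjusted p = 6.5e-05), and Saa3, serum amyloid A3, at 1759, 1613 and 264 CPM against 0.315 and 0.502 CPM (log2 difference 11.52, SE 1.32, adjusted p = 0.00095). Saa2 was low at D18, at 0.776, 1.99 and 1.42 CPM, with no count in P-RPE (at least 36.5-fold higher). Ccl5, a chemokine, was the one that was lower (log2 difference -3.33). Nfkbia, the inhibitor of NF-kappaB that IKK marks for degradation, did not pass and was within 2-fold, at 145, 140.15 and 81.8 CPM against 84.7 and 125 CPM (log2 difference 0.22, SE 0.30, adjusted p = 0.56).

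A majority of fibroblast matrix genes were higher at D18, but the count depended on the fit. Of 20 genes, 13 were higher, 1 lower and 6 did not pass, with a median of 2.64. Without a filter on low counts 4 were higher, Col3a1 and Col1a1 not among them (adjusted p = 0.051 and 0.083), and 7 or 8 were when the first or second P-RPE library was left out. Lox, the collagen cross-linker, was at 273, 339.98 and 256 CPM against 8.34 and 10.3 CPM (log2 difference 4.96, SE 0.21, adjusted p = 1.2e-05). Thy1, a surface protein of fibroblasts and neurons, was at 388, 367 and 175 CPM against 8.76 and 12 CPM, and Col3a1 at 7461, 5311 and 1363 CPM against 147 and 168 CPM (log2 difference 4.90, SE 0.83, adjusted p = 0.0043). Col1a1 was at 2655, 3365 and 751 CPM against 186 and 259 CPM (log2 difference 3.34, SE 0.70, adjusted p = 0.0096) and lost the call without the first P-RPE library (adjusted p = 0.065), and in MEF it was at 7218 to 7659 CPM on the scale of all 14 libraries. Pdgfrb, the receptor of pericytes and fibroblasts, was lower (log2 difference -1.86), and Dcn, decorin, did not pass, at 1187, 977 and 292 CPM against 430.41 and 508 CPM (log2 difference 0.80, SE 0.57, adjusted p = 0.28), though it passed without the third D18 library (adjusted p = 0.0028).

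Inhibitors of the cell cycle and p53 targets were mostly higher, 9 of 12, with 2 lower, 1 not passing and a median of 1.51. Cdkn2a, the gene of p16 and p19ARF, was at 143, 149 and 118 CPM against 0.157 and 0.15 CPM (log2 difference 9.76, SE 0.23, adjusted p = 2.9e-06). Its neighbour Cdkn2b was at 65, 68.9 and 67 CPM against 0.577 and 0.953 CPM (log2 difference 6.44, SE 0.23, adjusted p = 7.6e-06), and Trp53inp1, a p53 target, was higher (log2 difference 3.21). Cdkn1c, the p57 inhibitor (log2 difference -2.67), and Cdkn1b, p27 (log2 difference -0.79), were lower, and Gadd45b did not pass (log2 difference -0.94, SE 0.45, adjusted p = 0.13) except without the first D18 library (adjusted p = 0.0064). Mki67, a marker of dividing cells, was low in both groups, at 3.32, 2.14 and 3.72 CPM and 4.25 and 3.21 CPM (log2 difference -0.29, SE 0.34, adjusted p = 0.5).

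Genes that make and answer to retinoic acid were more often lower. Of 15, 9 were lower, 3 were higher and 3 did not pass, with a median of -1.53. The B27 supplement of the D18 medium lacked vitamin A, and its part in these differences was not tested. Cyp26a1, which degrades retinoic acid and is induced by it (log2 difference -4.98, adjusted p = 0.0071), Rdh10, which makes retinal from retinol (log2 difference -4.89), and Dhrs3, which reverses that step (log2 difference -4.27), were the 3 lowest. Crabp1, which binds retinoic acid, was at 219.71, 179 and 80.012 CPM against 0.157 and 0.301 CPM (log2 difference 9.41, SE 0.73, adjusted p = 0.00022), and Aldh1a1, which makes it in the dorsal retina, was at 364, 252 and 347 CPM against 28.3 and 54.2 CPM (log2 difference 2.96, SE 0.34, adjusted p = 0.00087). Cyp26b1 was higher by less (log2 difference 1.37, adjusted p = 0.035), a call lost without the second D18 library or the first P-RPE library (adjusted p = 0.085 and 0.14), and the receptor Rxra was within 2-fold.

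Feedback genes of the pathways that the medium acts on were set beside P-RPE as well. The part of the medium in any of these differences was not tested. Of 15 FGF feedback genes, 9 were lower and 2 higher, with a median of -1.25, and bFGF was in the D18 medium. Dusp4 was at 26.6, 17.5 and 13.2 CPM against 442 and 451 CPM (log2 difference -4.55, SE 0.30, adjusted p = 9.9e-05), and Dusp6 and Spry1 were lower too (log2 differences -3.77 and -2.94). Spred1 and Fgfr3 were the 2 higher (log2 differences 0.82 and 0.35), the second of them lost without any one of the 5 libraries, and Fgfr1 did not pass (log2 difference 0.25, SE 0.13, adjusted p = 0.15). Of 8 Hedgehog target and receptor genes, 2 were higher (Gas1 and Boc, both co-receptors), 2 were lower (Gli1, a target, among them) and 4 did not pass, Ptch1 being the most abundant of them at 84.4, 128 and 72.2 CPM against 149 and 136 CPM (log2 difference -0.59, SE 0.24, adjusted p = 0.084). Gli1 lost the call without the first D18 library (adjusted p = 0.076) or either P-RPE library, none of the 8 was lower without a filter, and Ptch1 passed without the second D18 library (adjusted p = 0.0022).

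Of 15 tested Wnt target genes, 6 were higher, 3 lower and 6 did not pass, with a median of -0.13. Without a filter or without the first P-RPE library 3 were higher. Axin2, the common feedback gene of the pathway, was within 2-fold, at 34.5, 32.4 and 48.1 CPM against 36.6 and 47.5 CPM (log2 difference -0.13, SE 0.21, adjusted p = 0.62). Sp8 was low at D18 with no count in P-RPE (at least 25.7-fold higher), Lgr5 and Apcdd1 were higher (log2 differences 3.17 and 1.86), and Rnf43, Lef1 and Ccnd1 were lower (log2 differences -5.33, -2.08 and -0.60). Apcdd1 and Ccnd1 did not pass without the first P-RPE library (adjusted p = 0.081 and 0.14), nor Lef1 and Ccnd1 without the second (adjusted p = 0.075 and 0.054). Of 15 genes that respond to BMP and TGF-beta, 4 were higher, 4 lower and 7 did not pass, with a median of -0.17. Id3, a direct BMP target, did not pass and was within 2-fold (log2 difference -0.02, SE 0.23, adjusted p = 0.94), the inhibitory Smad7 and Smad6 and Skil were lower (log2 differences -2.27, -1.97 and -1.87), and Id4, Msx2 and Msx1 were higher (log2 differences 4.58, 2.60 and 1.80). Neither of these lists thus had a majority in one direction.

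What the groups shared was led by genes of general cell function. Ribosomal protein and mitochondrially encoded genes were left out of this ranking. Among the 12 other genes within 2-fold with the highest mean CPM were Igfbp5, Lrp1, Eef1a1, Eef2, Eno1, Tmbim6, Hspa8, Egr1, Pkm, Nedd4 and Hsp90ab1. Igfbp5, an insulin-like growth factor binding protein, was at 3735, 3603 and 3409.9 CPM against 3482 and 3765 CPM (log2 difference -0.02, SE 0.16, adjusted p = 0.94). Hsp90ab1, a cytosolic chaperone, was at 1089.9, 1179 and 1054 CPM against 955 and 958 CPM (log2 difference 0.21, SE 0.14, adjusted p = 0.24). Eef1a1, a translation factor, was within 2-fold and also passed the test, at 2212, 2435 and 2243 CPM against 3305 and 3447 CPM (log2 difference -0.56, SE 0.16, adjusted p = 0.022). With either P-RPE library left out it no longer passed (adjusted p = 0.087 and 0.11). Of the 5208 shared genes, 4870 also had at least 10 CPM in every MEF library and 5039 in every D32 library. Most genes at this level did so whether shared or not: of all 8255 with at least 10 CPM in the 5 libraries, 7444 and 7949 did.

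Among genes with at least 10 CPM in all 5 libraries, of which 63.1% were within 2-fold over the whole table, all 24 ribosomal protein genes and 23 of 27 nuclear genes of the respiratory chain were within 2-fold. The medians of these lists were -0.23 and -0.15. The count was 8 of 11 for MHC class I presentation and 9 of 14 for sterol synthesis and lipid efflux. It was 6 of 17 for glycolysis and 9 of 21 for the lysosome, smaller shares than that of the whole table. Genes within 2-fold on the 6 RPE lists included Nr2f2, Mfge8, Ptk2 and Pdgfa.

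A small group of shared genes was not already on in the fibroblasts. Of the 5208 genes within 2-fold, 17 were under 1 CPM in every MEF library. Of all 8255 genes with at least 10 CPM in the 5 libraries, 94 were. None of the 17 is on the 6 RPE lists, but few genes within 2-fold are on those lists at all, so this is no separate result. The set was drawn up after the values were seen, and its most abundant genes included Fam189a2, Tspoap1, Car11 and Lsamp. Fam189a2 was at 131, 109 and 131 CPM against 168 and 164 CPM (log2 difference -0.42, SE 0.12, adjusted p = 0.024). Lsamp, a neuronal adhesion protein, was at 40.2, 26.3 and 39.8 CPM against 45.6 and 43.9 CPM (log2 difference -0.34, SE 0.20, adjusted p = 0.19).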

How the data were processed

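Total RNA of each library was sequenced as paired reads, per the labels' protocols. The authors deposited raw counts per gene symbol. STAR 2.7.11a, featureCounts (Subread), edgeR 4.0.16, limma 3.58.1 and the builds mm10, GRCm38 and GRCh38 are named without role, per the submitters' processing notes. The annotation, the strand setting and the handling of reads with several matches are not given in the sources used here, so overlapping genes and near-identical copies (globins, Saa genes, C4b, Reg3g, MHC class I genes) are uncertain. A second count table with 10 columns of other libraries was not used.

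From the counts of the 5 libraries, edgeR 4.0.16 in R 4.3.3 gave TMM scaling, its filter on low counts by group, robust quasi-likelihood tests of D18 against P-RPE without covariates, and Benjamini-Hochberg adjusted p-values over all 18692 genes, tested on simulated data beforehand. SE is the size of the log2 difference divided by the root of F, and intervals are 95%. Where a group had no count of a gene, 3 counts over that group served as the floor, and the fold is then a minimum, since the fitted log2 difference depends on the prior count. Intervals of the counts and floors cover counting error only, while intervals of log2 differences rest on the SE and so include the spread between libraries. Library totals of 34560073 to 41390196 make 1 count worth, after TMM scaling, 0.0251 to 0.0273 CPM. Coordinates come from GENCODE on GRCm38 and promoter sequences from RefSeq on GRCm38.p6.

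The members and gene lists were chosen with earlier results of these data known. Genes named were the 12 highest and 12 lowest log2 differences among called genes without overlap whose higher group averaged at least 10 CPM, the 3 called members of a described list with the largest differences each way and the most abundant of its members not called, the 12 most abundant genes within 2-fold, RPE list genes within 2-fold, and a set of known markers named always. Ribosomal protein and mitochondrially encoded genes were left out of the 12 most abundant genes within 2-fold. Further genes, named for their role, were chosen after their values were seen. Some genes that these rules name are not reported here. Alternatives were other scalings (DESeq2 1.42.0 size factors, library totals), other filters, all 14 libraries in the fit, the replicate number as a block, DESeq2 and limma-voom as tools, and each library left out.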

Additional observations from a re-analysis of the deposited data

How the results depend on the processing

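With 3 and 2 libraries a group, the spread rests on few samples; where a P-RPE library was left out, the lone one was assumed to vary as D18 did. Levels near 1 count cannot be ordered. Under every alternative fit, no gene called here was called in the opposite direction. Of 192 genes named and tested, 161 were called. Of these, 130 kept direction and call in each of the 14 settings in which they were tested. A setting whose filter dropped a gene was not counted for that gene.

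Genes higher and lower numbered 4977 and 5262 with DESeq2 size factors, 5589 and 4492 with library totals alone (55.4% of called genes higher in place of 50.1%, median log2 difference 0.13 in place of 0.02), 5013 and 5211 without a filter, 5414 and 5540 with DESeq2, and 5112 and 5324 with limma-voom. A mean of at least 5 CPM in a group left 2370 higher and 2210 lower by 2-fold or more. Genes within 2-fold fell to 2537 at a bound of 1.5-fold and to 1908 at 50 CPM. Leaving out 1 D18 library gave 4333 to 4850 higher, 4705 to 4914 lower and 4945 to 5189 within 2-fold. Each of these counts was lower still when a P-RPE library was left out. In the 150 bases before the start, 5 genes had CATGTG and 2 TAATCC. Without a filter, 4 fibroblast matrix genes were higher and 1 complement gene lower; 6 secreted factors were higher without the third D18 library, and 19 Hox genes at 5 CPM. Nr2e3, Slc12a2, Col4a6, Reg3g, Ucma, Cyp26b1, Fgfr3, Gli1, Lgr5 and Apcdd1 also lost their calls without a filter. The cause of these changes was not tested.

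The replicate number as a block gave 4166 higher and 4212 lower in the 5 libraries and 5472 and 5669 in all 14. Same-numbered libraries share only a number (correlations of deviations -0.07 and 0.04). With the block in 5 libraries the signs of Igfbp5 (0.0189), Msi1 (-0.11) and Id3 (0.15) reversed, and in 14 those of Msi1 (-0.008773) and Id3 (0.0499).

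The other reversals were of log2 differences that were not called in the 5 libraries. They were Msi1 with DESeq2 size factors (-0.006486), DESeq2 (-0.006504) and all 14 libraries (-0.007171), and Igfbp5 (0.0902) and Id3 (0.0830) with library totals. Leaving out 1 library at a time gave ranges that spanned 0 for Pax6 (-0.482 to 2.69), Jup (-0.0262 to 0.348), Nid2 (-0.0149 to 0.295), Msi1 (-0.109 to 0.1004), Mbp (-0.766 to 2.44), Nfkbia (-0.0317 to 0.532), Axin2 (-0.327 to 0.064), Id3 (-0.238 to 0.234), Igfbp5 (-0.0717 to 0.0405) and Egr1 (-0.189 to 0.419).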
